A study of Mus musculus with 6 samples.

Results

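The clustered histone genes of regulatory T cells (Tregs, a CD4 T cell type that expresses FOXP3 and holds other immune cells in check) were followed across 6 RNA libraries, 3 labelled WT and 3 labelled KO for JunB, which forms part of the transcription factor AP-1. The genes were those whose GENCODE M21 symbol begins with Hist1h, Hist2h, Hist3h or Hist4h. The rule named 70 genes, of which 3 pseudogenes and 2 genes with under 10 counts over all libraries (Hist1h1t with 0 and Hist1h2aa with 2) were left out. The 65 genes that remained, of 53379 counted gene identifiers, were 5 linker H1 genes and 17 H2A, 18 H2B, 12 H3 and 13 H4 genes. The Hist1 cluster on chromosome 13 holds 52 of them, the Hist2 cluster on chromosome 3 holds 10, Hist3 on chromosome 11 holds 2 and Hist4 on chromosome 6 holds 1. WT libraries came from C57BL/6 mice aged 3 months with the genotype Foxp3YFP-CrexJunb+/+, and KO libraries from such mice with Foxp3YFP-CrexJunbFlox/Flox. All 6 libraries therefore carry the Cre allele, which is driven by Foxp3 and acts on the floxed gene in Foxp3-expressing cells, and differ by label only in Junb. The labels' protocols say that Tregs were purified by FACS and do not describe the gate. Values per library are given in the order of replicates 1, 2 and 3.

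Chromatin winds DNA around a core of the histones H2A, H2B, H3 and H4, and H1 binds the linker DNA between such cores. Clustered histone genes are known for high transcription in S phase, when new DNA needs new chromatin. Most of their mRNAs have no introns and end in a short stem-loop instead of a poly(A) tail. The stem-loop is bound by SLBP, and the U7 snRNP guides the cut just past it. Histone mRNAs with a poly(A) tail also exist, and some are made in cells that do not divide. Library construction used the SmarTer Ultra Low Input chemistry, which primes from poly(A), so levels here may count only part of each gene's RNA. How much was not tested.

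The stem-loop is shown first because it defines this RNA class. A 16-base match with at most 2 mismatches to the form held by most of the genes was found in the annotated transcripts of 40 of the 65 genes. The paired arms are in capitals and the loop in lower case, 5′ to 3′ on the sense strand, from the GENCODE M21 transcripts on GRCm38, which mm10 also names.
26 genes of H1, H2A, H2B and H3: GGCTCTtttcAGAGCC
7 genes, all H4: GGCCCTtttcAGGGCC
5 genes of H2B and H3: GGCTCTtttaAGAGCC
Hist1h3g: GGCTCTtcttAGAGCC
Hist2h2ac: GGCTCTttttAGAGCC
In the 7 H4 genes both arms carry a changed base, which keeps them paired. The annotated transcript stopped within 100 bases of the stem-loop in 22 genes and ran on for more than 100 bases in 18, and no stem-loop was found in 25. Per kilobase of gene model, the median level was 8.54 CPM, a count scaled to the library's size, in the first set, 1.56 in the second and 4.91 in the third. A longer gene model lowers a level per kilobase where reads do not cover its added part, and this was not tested. In the third set, not found does not mean absent. The gene models of Hist1h2ai, Hist1h2ak and Hist1h2an, for example, are 393 bases long, the usual H2A coding length. A stem-loop past the coding part could not be found in such models, and the 3 sets partly reflect how far the annotation runs.

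The coding starts of these genes are alike, and in some of them a stretch of 50 bases, the length of a read, is identical. The H4 genes shown are the 2 identical copies, Hist1h4d with the highest level of its class, and the Hist4h4 gene outside the large clusters. Each line gives coding bases 20 to 69 in sense, from GENCODE M21 on GRCm38. Capitals mark bases other than the usual one, the commonest of the class at that place.
Hist1h4m, chr13:21811803-21811852, plus strand: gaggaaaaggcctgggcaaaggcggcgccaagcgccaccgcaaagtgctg
Hist1h4n, chr13:21832090-21832139, minus strand: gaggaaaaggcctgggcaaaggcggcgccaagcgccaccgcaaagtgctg
Hist1h4d, chr13:23581621-23581670, plus strand: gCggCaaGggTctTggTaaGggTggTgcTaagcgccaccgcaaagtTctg
Hist4h4, chr6:136804311-136804360, minus strand: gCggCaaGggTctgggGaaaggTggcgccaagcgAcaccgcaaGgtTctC
Hist1h4d differed from the usual bases at 11 of the 50 places and Hist4h4 at 10, and 12 of the 13 H4 windows were distinct.

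For H2A the window is coding bases 1 to 50, and 13 of 17 were distinct. The Hist1h2a genes shown are among those with values given below, and Hist2h2aa1 and Hist3h2a are among the 5 H2A genes outside that cluster.
Hist1h2ap, chr13:21833426-21833475, minus strand: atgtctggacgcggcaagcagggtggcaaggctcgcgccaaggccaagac
Hist1h2ao, chr13:21810467-21810516, plus strand: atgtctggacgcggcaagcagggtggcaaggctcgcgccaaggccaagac
Hist1h2af, chr13:23533911-23533960, plus strand: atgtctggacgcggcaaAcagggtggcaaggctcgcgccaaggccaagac
Hist1h2ac, chr13:23683868-23683917, minus strand: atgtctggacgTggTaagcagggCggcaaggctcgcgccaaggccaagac
Hist2h2aa1, chr3:96245581-96245630, plus strand: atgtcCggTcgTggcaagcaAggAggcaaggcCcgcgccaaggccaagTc
Hist3h2a, chr11:58954738-58954787, plus strand: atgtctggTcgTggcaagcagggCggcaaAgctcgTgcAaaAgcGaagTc
Hist1h2ap and Hist1h2ao were identical here, Hist1h2af differed from the usual bases at 1 place and Hist3h2a at 9.

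Copies had nearly equal deposited counts. Hist2h2aa1 and Hist2h2aa2 had 867 and 867 counts in WT replicate 1 and 1337 and 1338 in WT replicate 3, and differed by at most 1 count in any library. Hist1h2ao and Hist1h2ap differed by at most 2 counts, as did Hist1h4m and Hist1h4n. Hist2h2ab and the antisense gene Gm15444 had equal counts in 5 of 6 libraries. Reads thus appear to have been counted at each of these copies, and at an overlapping antisense gene, but the counting options are not given. At least 1 stretch of 50 bases was shared with a gene elsewhere in 61 of the 65 genes, and more than 50% of the stretches in 30. The median share was 2.25% in H1, 78.9% in H2A, 44.0% in H2B, 57.2% in H3 and 39.5% in H4. The exons of all 17 H2A genes, and of 23 of the 65 genes, also overlap another annotated gene. Values of single H2A, H2B, H3 and H4 genes are therefore uncertain, genes of a class are not independent of each other, and class sums count some reads more than once.

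Totals lay between 33784183 and 41231173 counts per library, and the 65 genes had between 34 counts (Hist4h4) and 5634 counts (both Hist2h2aa1 and Hist2h2aa2) over all libraries. Junb had 87.1, 77.5 and 89.5 CPM in WT against 57.1, 57.3 and 49.6 CPM in KO, a log2 difference of -0.63 (SE 0.13; edgeR adjusted p = 0.9999). The Treg regulator Foxp3 was present in every library, with 32.7 to 39.5 CPM in WT and 28.1 to 39.0 CPM in KO. The T cell genes Cd3e and Cd4 were at 257 CPM or more in every library. In these bulk libraries, fewer cells of a type and less RNA per cell cannot be told apart. The labels do not tie libraries to separate animals, so a p-value here reflects variation among 6 libraries that may be technical.

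No clustered histone gene was called between WT and KO. The edgeR quasi-likelihood test called 0 of 20475 genes at an adjusted p of 0.05 (0.0%), and 590 (2.88%) had an unadjusted p under 0.05. Of the 65 histone genes 62 passed the filter on low counts, leaving out Hist2h3c2, Hist2h3b and Hist4h4, and 0 of the 62 had an unadjusted p under 0.05. The smallest was 0.0883, for Hist1h2bn. DESeq2 called 63 of the 23198 genes to which it gave an adjusted p (0.272%) and limma-voom called 0 (0.0%), and neither gave a histone gene a call or an unadjusted p under 0.05. Of the 62 genes 20 had a higher and 42 a lower mean in KO (67.7% lower, where 50.9% of all genes tested were higher and 49.1% lower), with a median log2 difference of -0.18 against 0.01 for all genes. That direction turned with single libraries and with the choice of genes. Over the 4 genes with no shared stretch the median was 0.25 (3 higher, 1 lower), and over the 14 with under 20% shared it was 0.03 (7 higher, 7 lower). Without WT replicate 3 the split was 36 higher and 26 lower with a median of 0.11, and without KO replicate 3 it was 42 higher and 23 lower with a median of 0.14. The median SE of a gene's log2 difference was 0.58, and the 95% interval held both -1 and 1 in 31 genes, so these intervals exclude a 2-fold change in neither direction. The plot of differences with their intervals shows how wide they are.

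**Figure D1:**
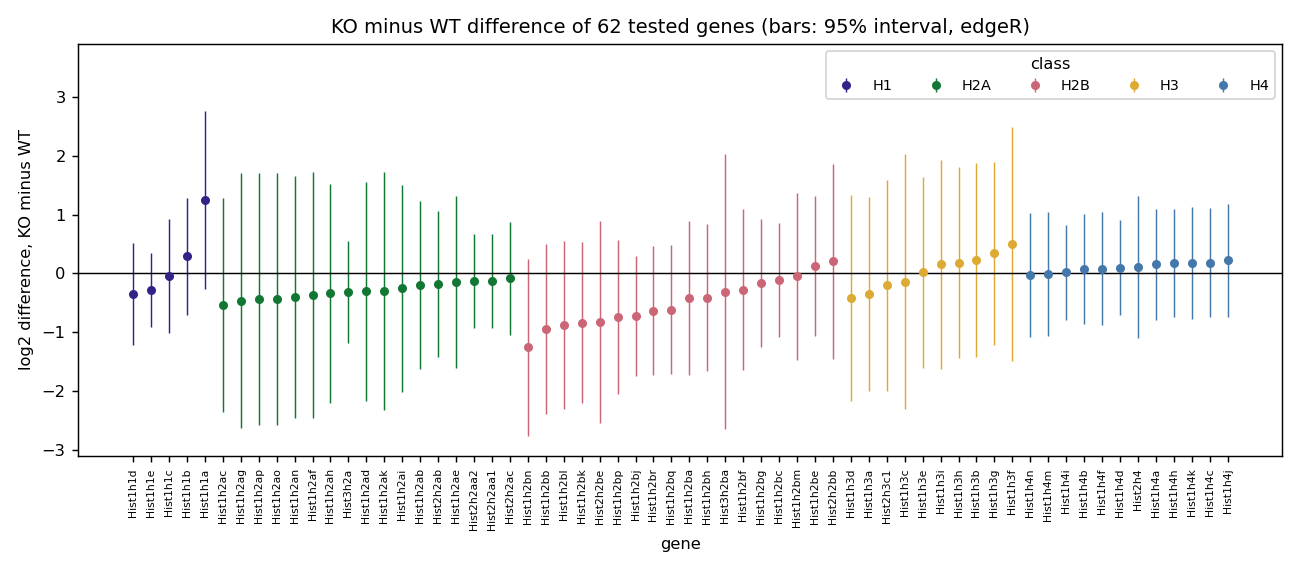
Each point is the log2 difference, KO minus WT, of 1 of the 62 tested genes, and each bar its 95% interval from edgeR with 3 libraries per genotype, coloured by histone class. Every interval crosses 0, all 17 H2A points lie below 0 (15 lie above it without WT replicate 3 or without KO replicate 3), and 16 of the 18 H2B points do.

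The order of the libraries differed between classes, and WT and KO overlapped in the sum of every class. Summed over all 65 genes the level was 282, 290 and 434 CPM in WT and 441, 293 and 176 CPM in KO. WT replicate 3 and KO replicate 1 were thus the 2 highest libraries, and KO replicate 3 the lowest. The group means were 335 ± 85.7 CPM (SD, n = 3) for WT and 303 ± 133 CPM for KO, and the groups overlapped. KO replicate 3 was the lowest library for 41 of the 65 genes (63.1%, against 14.1% of all genes tested). WT replicate 3 and KO replicate 1 were the highest pair for 30 genes (46.2%, against 12.9%). The plot of all genes by library shows these 3 columns standing apart within the Hist1h2a genes.

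**Figure D2:**
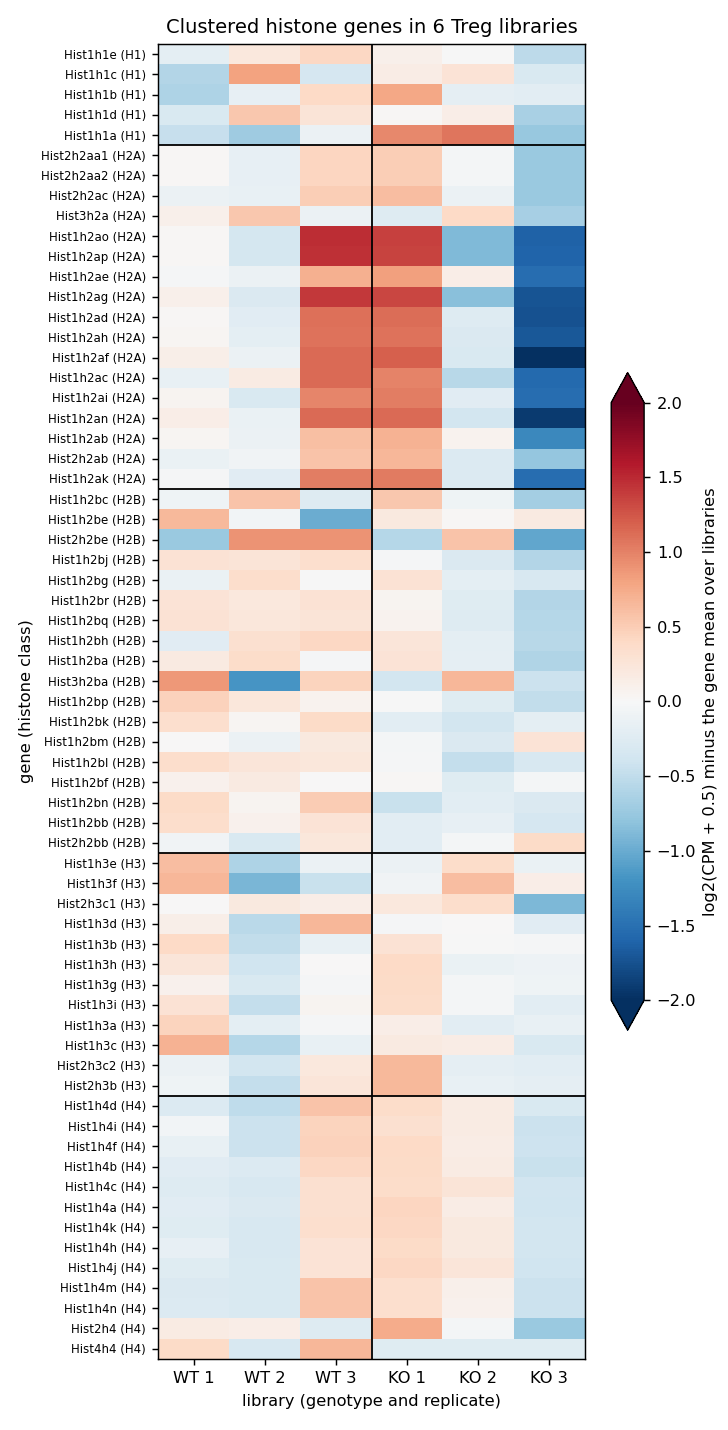
Heat map of the 65 genes (rows, grouped by class and ordered by mean level) in the 6 libraries (columns, WT left and KO right). Colour gives log2(CPM + 0.5) minus the gene's mean over libraries. WT replicate 3 and KO replicate 1 are red and KO replicate 3 is blue over most H2A genes, while the H3 genes are lowest in WT replicate 2 in 10 of 12 cases.

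H2A genes had the widest range between libraries. The 17 genes summed to 134, 122 and 235 CPM in WT and to 237, 118 and 58.0 CPM in KO. KO replicate 3 was the lowest library for 17 of 17, and WT replicate 3 and KO replicate 1 were the highest pair for 16 of 17, the exception being Hist3h2a. The swing lay mainly in the 12 Hist1h2a genes. Their sum was 60.9, 51.4 and 139 CPM in WT and 137, 44.8 and 15.1 CPM in KO, 9.23-fold from lowest to highest library. The 5 H2A genes of the Hist2 and Hist3 clusters summed to 73.4, 70.7 and 95.9 CPM in WT and 99.98, 72.8 and 42.9 CPM in KO, a 2.33-fold range with the same libraries highest and lowest. In both sets the WT and KO libraries overlapped.

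Hist1h2ap (chr13:21833026-21833507, minus strand of GRCm38) had 6.74, 5.08 and 19.2 CPM in WT and 17.7, 3.34 and 1.83 CPM in KO. Its 10.5-fold range was matched or exceeded by 8.98% of the 17185 tested genes with a mean of at least 1 CPM. The log2 difference of KO from WT was -0.44 (SE 0.90; edgeR adjusted p = 0.9999), and the groups overlapped. Its near copy Hist1h2ao, which shares its reads, had a log2 difference of -0.44 that lay between -2.01 and 0.36 when each library in turn was left out. Hist1h2af had the widest range of any of the 65 genes with a count in every library, 15.4-fold, with 4.68, 3.91 and 10.04 CPM in WT and 10.4, 3.37 and 0.67 CPM in KO. Hist1h2ac has the lowest share of shared stretches among the Hist1h2a genes, 11.6%, but its gene model runs 2010 bases past the stem-loop and 283 of its stretches are shared, as many as in Hist1h2ae. Where its reads fell was not tested. It showed the same libraries high and low. It had 3.903, 4.96 and 10.2 CPM in WT and 9.19, 2.83 and 1.16 CPM in KO.

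The H2A genes outside the Hist1 cluster varied less. Hist2h2aa1 and Hist2h2aa2, whose reads cannot be told apart, each had 25.1, 21.9 and 33.1 to 33.2 CPM in WT and 34.7, 23.8 and 14.5 CPM in KO. Their log2 difference was -0.14 (SE 0.34). Per kilobase they were at 43.5 and 48.3 CPM, the highest of the 65 genes, followed by Hist2h2ac with 22.5. Hist2h2ac had a log2 difference of -0.09 (SE 0.41). Hist3h2a, 2.003% shared, was the exception to the common order, with 9.89, 13.5 and 8.40 CPM in WT and 7.58, 12.2 and 5.61 CPM in KO, and a log2 difference of -0.32 (SE 0.37). All 17 H2A genes had a lower KO mean, with log2 differences from -0.53 to -0.09 and a median of -0.31. That count reversed without WT replicate 3 (15 higher, 2 lower, median 0.16) and without KO replicate 3 (15 higher, 2 lower, median 0.13). Without KO replicate 1 the median was -1.38.

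**Figure D3:**
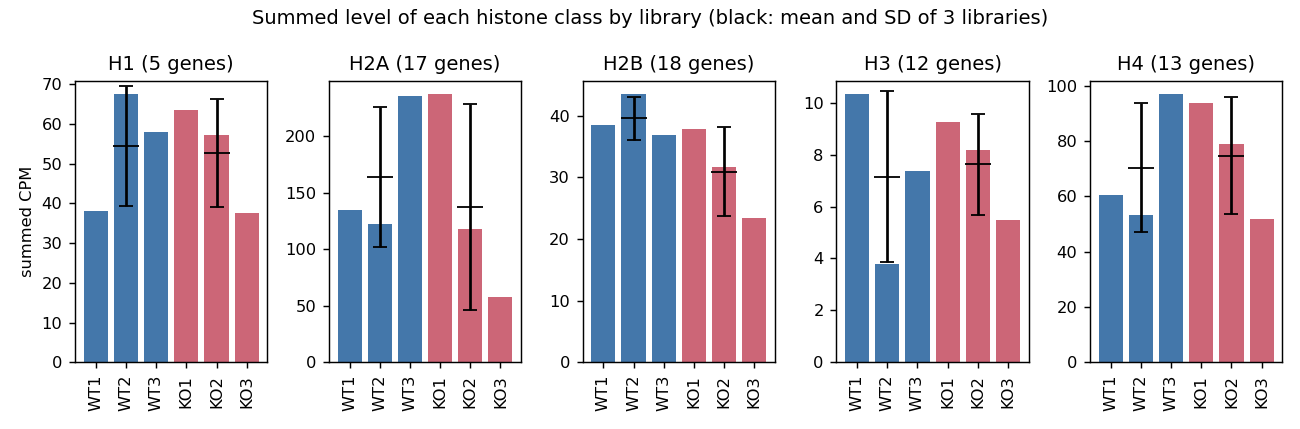
Summed CPM (vertical axes, each starting at 0) of each histone class in each library, with the mean and SD of the 3 libraries of a genotype in black. H2A ranges from 58.0 to 237 CPM and H3 has its lowest value, 3.77 CPM, in WT replicate 2.

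H2B, the partner with which H2A enters the core as a dimer, behaved differently. The 18 genes summed to 38.4, 43.4 and 36.8 CPM in WT and to 37.8, 31.6 and 23.3 CPM in KO. KO replicate 3 was again lowest, but WT replicate 3 and KO replicate 1 were the highest pair for 0 of the 18 genes. The means were 39.5 ± 3.47 CPM (SD, n = 3) for WT and 30.9 ± 7.25 CPM for KO. Of the 18 genes 16 had a lower KO mean, with a class median of -0.52. The median stayed below 0 with each library left out, between -0.77 and -0.38, and lay between -0.58 and -0.43 under the other scalings, filters, models and tools.

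In 8 of the 62 histone genes tested every KO library lay outside the range of the WT libraries (12.9%, against 7.76% of all genes tested). All 8 were H2B genes that were lower in KO, 44.4% of the 18 H2B genes, where 4.07% of all genes tested were lower and 3.68% higher without overlap. Hist1h2bn had 0.87, 0.58 and 0.99 CPM in WT and 0.27, 0.40 and 0.35 CPM in KO, a log2 difference of -1.26 (SE 0.64, 95% interval -2.76 to 0.25). Hist1h2bj had 2.63, 2.57 and 2.75 CPM in WT and 2.01, 1.60 and 1.21 CPM in KO, a log2 difference of -0.72 (SE 0.43). Hist1h2bb had 0.84, 0.61 and 0.77 CPM in WT and 0.40, 0.43 and 0.32 CPM in KO, a log2 difference of -0.94 (SE 0.61). Hist1h2bj was nearly level in WT, and KO replicate 3 was lowest in it and in Hist1h2bb. The other 5 genes were Hist1h2bl, Hist1h2bk, Hist1h2bp, Hist1h2br and Hist1h2bq, with log2 differences of -0.88, -0.84, -0.74, -0.63 and -0.62. The unadjusted p of the 8 lay between 0.0883 and 0.226 and the adjusted p was 0.9999 for each.

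These 8 genes do not count as 8 observations. Their mean levels were low, 0.56 to 2.13 CPM, and between 40.1% and 97.3% of their stretches were shared. None of the 5 H2B genes with under 25% shared was among the 8. Of these, Hist1h2be, 6.28% shared, had 6.39, 3.71 and 1.71 CPM in WT and 4.53, 3.94 and 4.45 CPM in KO (log2 difference 0.13, SE 0.50). The Hist1h2be exons overlap those of Hist1h1e and Gm11398, so its value is uncertain too. Hist2h2be, 0% shared, had 1.36, 5.31 and 5.30 CPM in WT and 1.59, 4.11 and 1.02 CPM in KO (log2 difference -0.83, SE 0.73). WT and KO overlapped in each. Hist1h2bc, at 8.76, 14.2 and 7.71 CPM in WT and 13.8, 8.83 and 5.69 CPM in KO, had a log2 difference of -0.12 (SE 0.41).

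H2A and H2B genes often lie back to back and share the stretch between their starts. Of 13 such divergent pairs within 1000 bases, 11 joined an H2A and an H2B gene that were both kept, with 175 to 301 bases between the gene models. The highest library was 9.59-fold above the lowest for the H2A gene of these pairs and 2.36-fold for the H2B gene (medians). The H2A gene had the wider range in 10 of 11 pairs, and the higher level per kilobase in 10 of 11. The exceptions were Hist2h2ac with Hist2h2be for the range and Hist1h2ac with Hist1h2bc for the level. Over all genes of each class, paired or not, the sum of H2A divided by that of H2B was 3.50, 2.81 and 6.40 in WT and 6.27, 3.72 and 2.49 in KO. The ratio within each pair was not computed by library. Shared reads and overlapping gene models are more frequent in H2A, and their part in this was not tested.

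**Figure D4:**
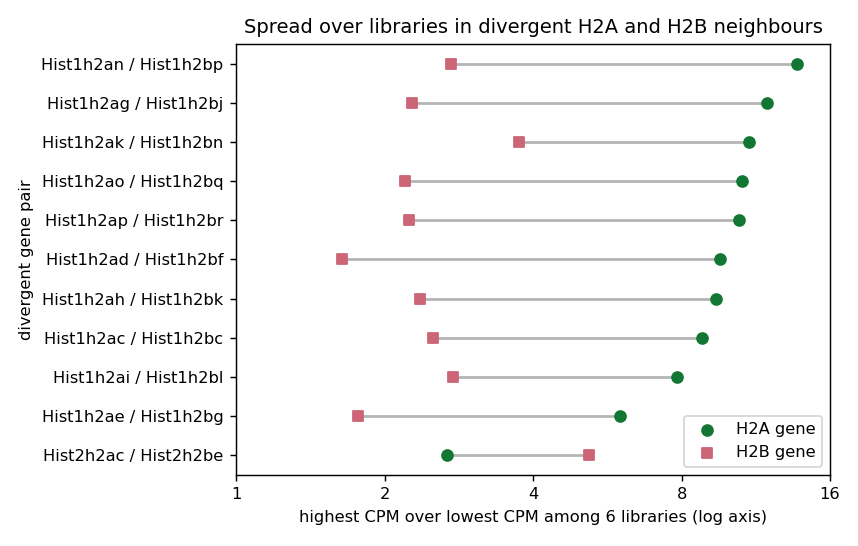
For each of 11 divergent pairs, the ratio of the highest to the lowest CPM among the 6 libraries (log axis) for the H2A gene (circle) and the H2B gene (square). The circle lies right of the square in 10 of the 11 pairs, and the Hist2h2ac and Hist2h2be pair is the exception.

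The H2A and H2B promoters also had motifs in common. RefSeq promoter windows of 300 bases on GRCm38.p6 were matched for 60 of the 65 genes, with 61 windows, and motifs were searched on both strands. CCAAT, the letters bound by NF-Y, were in every H1, H2A, H2B and H3 window and in 3 of the 12 H4 windows (85.2% of all histone windows), against 37.4% of all 32851 windows. TATAAA was in 55.7% of the histone windows against 13.6%. The octamer ATTTGCAT, known from H2B promoters, was in 35.3% of H2A and 41.2% of H2B windows and 0% of the H1, H3 and H4 windows, against 1.74%. TGANTCA, a looser form of the AP-1 site that allows any middle base, was in 4.92% of the histone windows and 7.81% of all windows. The histone matches were in Hist1h1b and in the pair Hist1h2ai and Hist1h2bl. Their middle base was T in Hist1h1b and A or T, by strand, in the pair. Whether AP-1 binds these matches was not tested. Divergent genes have overlapping windows, so their matches are not separate. The Hist1h2ap window, which reaches into the stretch shared with Hist1h2br, is shown because its 2 genes differ in range. The Hist1h1b window is shown because it holds a TGANTCA match. Capitals mark the motifs on either strand.
Hist1h2ap, chr13:21833426-21833725, minus strand: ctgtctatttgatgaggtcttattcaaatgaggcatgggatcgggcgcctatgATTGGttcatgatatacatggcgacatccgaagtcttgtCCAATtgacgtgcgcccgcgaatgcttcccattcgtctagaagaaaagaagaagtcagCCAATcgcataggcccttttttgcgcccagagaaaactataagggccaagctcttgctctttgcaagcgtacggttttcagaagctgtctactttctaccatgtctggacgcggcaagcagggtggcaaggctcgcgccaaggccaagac
Hist1h1b, chr13:21780576-21780875, minus strand: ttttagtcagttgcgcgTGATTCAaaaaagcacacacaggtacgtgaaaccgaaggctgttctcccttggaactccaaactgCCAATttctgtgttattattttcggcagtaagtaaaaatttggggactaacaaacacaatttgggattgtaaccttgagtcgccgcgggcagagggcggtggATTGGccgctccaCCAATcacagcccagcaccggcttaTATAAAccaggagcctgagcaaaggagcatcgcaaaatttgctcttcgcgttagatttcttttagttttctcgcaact
Hist1h1b had a log2 difference of 0.29 (SE 0.42), Hist1h2ai of -0.26 (SE 0.74) and Hist1h2bl of -0.88 (SE 0.60). The 95% interval of each of the 3 held 0, so their directions are uncertain. Whether the TGANTCA match plays a part in these levels was not tested.

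The linker H1 genes share few stretches, 0% to 8.54%, which leaves less room for shared reads in their single values. The exons of Hist1h1e overlap those of Hist1h2be and Gm11398, so reads of those genes may be counted in it. Their sum was 38.0, 67.4 and 57.9 CPM in WT and 63.5, 57.2 and 37.5 CPM in KO. Hist1h1a (chr13:23763666-23764406), an H1 gene known for expression in dividing cells and with no shared stretch, had 1.53, 1.20 and 2.08 CPM in WT and 4.96, 5.37 and 1.16 CPM in KO. KO replicates 1 and 2 were above every WT library and KO replicate 3 below every one. The log2 difference was 1.25 (SE 0.64, 95% interval -0.26 to 2.76; edgeR adjusted p = 0.9999), the highest of the 62 genes. Hist1h1b, also without a shared stretch, had 5.29, 7.45 and 11.3 CPM in WT and 14.8, 7.40 and 7.195 CPM in KO. Its groups overlapped, and KO replicate 1 was the highest library.

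The H1 genes Hist1h1c and Hist1h1e had annotated transcripts that run 840 and 1153 bases past the stem-loop. Hist1h1c had 10.5, 28.2 and 12.6 CPM in WT and 17.7, 19.3 and 12.8 CPM in KO, with WT replicate 2 far above the others. Its log2 difference of -0.04 (SE 0.41) lay between -0.30 and 0.53 when each library was left out. Hist1h1e had 15.2, 20.3 and 23.6 CPM in WT and 18.9, 17.4 and 12.1 CPM in KO, a log2 difference of -0.28 (SE 0.27). Hist1h1d, the remaining gene, had 5.49, 10.3 and 8.40 CPM in WT and 7.05, 7.68 and 4.23 CPM in KO. KO replicate 3 was the lowest library for 3 of the 5 H1 genes, and WT replicate 3 and KO replicate 1 were the highest pair for 1.

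H4 genes, which encode the partner of H3 in the core, shared the highest pair and the lowest library of H2A in their sum, but KO replicate 2 lay above WT replicates 1 and 2 in H4 and below both in H2A. Their sum was 60.7, 53.4 and 96.9 CPM in WT and 93.8, 78.8 and 51.9 CPM in KO. WT replicate 3 and KO replicate 1 were the highest pair for 11 of 13 genes and KO replicate 3 the lowest for 10. The median range was 1.92-fold for H4 genes and 8.81-fold for H2A genes, beside 1.92-fold for all tested genes with a mean of at least 1 CPM. Hist1h4d (chr13:23581598-23582735), 10.2% shared, had 16.8, 14.3 and 30.7 CPM in WT and 26.6, 22.9 and 16.5 CPM in KO. Its log2 difference was 0.09 (SE 0.34). Hist1h4i had a log2 difference of 0.02 (SE 0.34).

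Of the 12 tested H4 genes 10 had a higher KO mean, with a median of 0.10. Without KO replicate 1 this was 2 of 13 with a median of -0.13, without WT replicate 2 it was 6 of 13, and without WT replicate 1 it was 6 of 12. Hist4h4, the only gene of its cluster, had 11, 0 and 20 counts in WT and 1 count in each KO library. It was below the filter and was not tested. The sum of H2A divided by that of H4 was 2.21, 2.29 and 2.43 in WT and 2.53, 1.49 and 1.12 in KO, with KO replicates 2 and 3 below the other 4 libraries.

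The H3 genes had the lowest levels, a median of 0.82 CPM per kilobase, against 13.4 for H2A, 1.55 for H2B, 8.58 for H4 and 9.28 for H1. Their sum was 10.3, 3.77 and 7.38 CPM in WT and 9.25, 8.17 and 5.47 CPM in KO. WT replicate 2 was lowest for 10 of the 12 genes, unlike in any other class. Hist1h3f, whose log2 difference of 0.50 (SE 0.84) was the highest of the class, had 1.71, 0.23 and 0.52 CPM in WT and 0.82, 1.63 and 1.02 CPM in KO. Of the 10 tested H3 genes 6 had a higher and 4 a lower KO mean, with a median of 0.08. Without WT replicate 1 it was 0.52, without WT replicate 2 it was -0.12 (4 higher, 8 lower) and without KO replicate 1 it was -0.21 (4 higher, 6 lower).

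**Figure D5:**
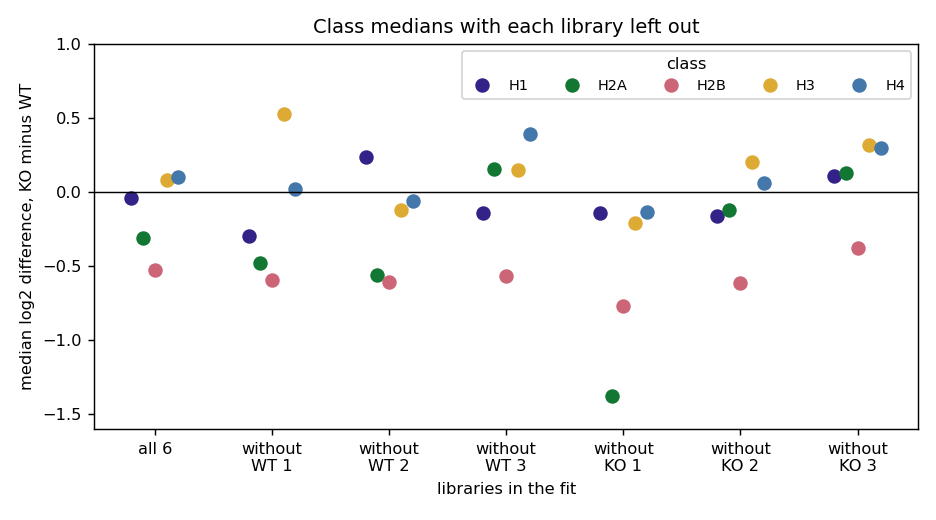
Median log2 difference, KO minus WT (vertical axis), of each histone class in fits to all 6 libraries and to 5 libraries (horizontal axis names the one left out). H2A runs from -1.38 without KO replicate 1 to 0.16 without WT replicate 3, and H2B is below 0 in every fit, from -0.77 to -0.38.

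The tables' names carry a number that the labels do not explain, and it puts WT replicates 1 and 2 with KO replicate 2 and WT replicate 3 with KO replicates 1 and 3. Within the first set the median log2 difference of the 62 genes was -0.03 (28 higher, 34 lower, on log2(CPM + 0.5)), and within the second it was -0.42 (14 higher, 48 lower). By class, H1 had -0.01 and -0.04 in the first and second set, H2A -0.17 and -0.76, and H2B -0.39 and -0.43. H3 had 0.03 and 0.08, and H4 0.42 and -0.34. H4 was the only class to change direction, and the H1 and H3 values were near 0. With 1 library on a side these values have no test.

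The genes that work with histone RNA and protein had a median range between libraries of 1.59-fold for transcription and 3′ processing, 1.53-fold for chaperones and 1.45-fold for replication-independent histones, beside 1.92-fold for all tested genes with a mean of at least 1 CPM. The widest was 27.1-fold, for Zfp473 of the processing list, which was named after its values were seen. Of 18 genes for the transcription and 3′ processing of histone pre-mRNA, 0 were called, 6 had a higher and 12 a lower KO mean, and the median was -0.10. Slbp, whose product binds the stem-loop, had 89.95, 84.5 and 73.6 CPM in WT and 78.2, 98.2 and 62.4 CPM in KO (log2 difference -0.06, SE 0.19). Npat, a coactivator of histone genes in S phase, had 31.7, 12.8 and 13.4 CPM in WT and 15.3, 28.3 and 23.6 CPM in KO (log2 difference 0.22, SE 0.42). KO replicate 3 was lowest for Slbp, and WT replicate 2 for Npat. Cpsf3, the endonuclease of 3′ processing, and Upf1, a helicase of RNA decay, had log2 differences of -0.06 and -0.28.

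Of 17 histone chaperone and assembly genes 0 were called, 12 had a higher and 5 a lower KO mean, and the median was 0.08. The most abundant were Atrx, Rbbp4 and Supt16, a subunit of the FACT complex, with log2 differences of -0.01, 0.23 and 0.22. Of the 11 genes listed as replication-independent histones, 9 were tested and 0 were called. Of the 9, 4 had a higher and 5 a lower KO mean, and the median was -0.10. H3f3b had 623, 742 and 691 CPM in WT and 612, 791 and 742 CPM in KO. H2afz had 610, 577 and 630 CPM in WT and 461, 532 and 647 CPM in KO (log2 difference -0.15, SE 0.14), and H3f3a had a log2 difference of 0.09. H2afy2 was not tested, at 0.029, 0.088 and 0 CPM in WT and 0.24, 0.86 and 0.35 CPM in KO, and its libraries did not overlap. H2afx, the variant that is phosphorylated at DNA breaks, had 17.9, 25.1 and 28.5 CPM in WT and 28.7, 13.2 and 5.47 CPM in KO, so that it shared its 2 highest libraries and its lowest with H2A. It was named after its values were seen.

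Genes of S phase and mitosis give the background of cell division. Of 40 such genes 0 were called, 27 had a higher and 13 a lower KO mean, and the median was 0.11. Their sum was 935, 989 and 1415 CPM in WT and 1341, 1355 and 874 CPM in KO. Mki67, a marker of dividing cells, had 43.2, 65.9 and 99.8 CPM in WT and 91.3, 72.8 and 48.3 CPM in KO, with WT replicate 3 and KO replicate 1 highest, as for H2A. Top2a, the topoisomerase of mitotic chromosomes, had 51.8, 47.9 and 77.4 CPM in WT and 73.7, 113 and 55.1 CPM in KO, with KO replicate 2 highest. The most abundant of the list, Mcm6 and Pcna of the replication machinery, had log2 differences of -0.03 and -0.19. Cenpf, a kinetochore gene, was the 1 gene of the 40 without overlap (7.76% of all genes tested had none, 3.68% with KO higher), with 6.30 to 10.7 CPM in WT and 13.3 to 17.8 CPM in KO (log2 difference 0.76, SE 0.29; edgeR adjusted p = 0.9999), and like H2afx it was named after its values were seen. The part of cell division in the histone levels was not tested.

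Markers of other cells also moved between libraries. The 12 erythroid and platelet markers summed to 111, 429 and 2834 CPM in WT and 7777, 1667 and 79.1 CPM in KO, with the same 2 libraries highest and the same lowest as the H2A sum. Hba-a1, Hba-a2 and Hbb-bs made up most of it, and Slc4a1, Klf1 and Ppbp were among the markers at 0 in at least 1 library. The 12 B cell markers ranged from 138 to 1219 CPM in WT and 593 to 760 CPM in KO. The 8 plasma cell markers ranged from 325 to 1943 and 588 to 1708 CPM, with Tnfrsf17 at 0 in at least 1 library, and the 13 myeloid markers from 170 to 1201 and 466 to 1266 CPM, with Cd14 at 0 in at least 1 library. B cell, plasma cell and myeloid markers were highest in WT replicate 2 or KO replicate 2 and lowest in WT replicate 3, an order unlike that of H2A. The 11 CD8 T and NK cell markers ranged from 188 to 376 and 304 to 432 CPM, and the 10 conventional CD4 T cell markers from 1458 to 1899 and 1577 to 2433 CPM. The 6 Treg identity markers summed to 2208, 1425 and 1375 CPM in WT and 865, 1599 and 1402 CPM in KO. Of the tested markers, 0 Treg markers had a higher and 6 a lower KO mean (median log2 difference -0.40), 13 and 0 myeloid (0.73), 10 and 1 erythroid or platelet (1.47), 9 and 1 conventional CD4 T cell (0.31), 9 and 2 CD8 T or NK cell (0.64), 10 and 2 B cell (0.40) and 5 and 3 plasma cell (0.13). All 17 H2A genes, 16 of the 18 H2B genes and 42 of the 62 tested histone genes also had a lower KO mean. In H4, 10 of 12 tested genes had a higher KO mean, and in H3 6 of 10. By library the orders differed. The Treg marker sum was lowest in KO replicate 1, where the H2A sum was highest at 237 CPM. The H2A count reversed without WT replicate 3 and without KO replicate 3. The most abundant markers were Cd79b, Cd79a and Ms4a1 for B cells, Jchain, Mzb1 and Xbp1 for plasma cells, Lyz2, Cybb and S100a8 for myeloid cells, Ccl5, Nkg7 and Prf1 for CD8 T and NK cells, and Cd3e, Ikzf2 and Cd4 for Tregs. In the marker and histone-related lists edgeR, DESeq2 and limma-voom called 0 genes. At an unadjusted p under 0.05 edgeR had the conventional CD4 T cell markers Il7r (log2 difference 0.68) and Dapl1 (1.19), the platelet marker Itga2b (-3.21) and Cenpf, and 0 in the other lists. Il7r and Cd40lg (0.47) were the 2 marker genes without overlap. Over all genes tested, 7.76% had no overlap and 2.88% had an unadjusted edgeR p under 0.05. These markers were named after their values were seen. The part of these cells in the histone levels was not tested.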

How the data were processed

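Tregs were measured by RNA-seq in 3 WT and 3 KO libraries, grouped by the genotype in the labels. The authors deposited raw read counts per Ensembl gene, 1 table per library. The submitters' processing notes name featureCounts, STAR 2.3, bcl2fastq 2.19.0.316 and build mm10. They give no annotation, options or strand setting. Of 53379 identifiers 53274 matched GENCODE M21. Counts were compared over all genes with edgeR 4.0.16 (R 4.3.3): filterByExpr, TMM, robust quasi-likelihood fit, genotype as the only term, two-sided, Benjamini-Hochberg over 20475 genes, threshold 0.05. The script was checked on simulated data. CPM values use TMM library sizes. Library totals were 33784183 to 41231173 counts. The coefficient of variation between libraries of a genotype was 51.0%. DESeq2 1.42.0 and limma-voom (limma 3.58.1) were alternatives, with other scalings, filters and covariates, a replicate block and each library left out. No pair of libraries agreed within sampling noise. Shared stretches, stem-loops and coding windows were read from GENCODE M21 transcripts, promoters from RefSeq. Named histone genes were the 10 highest in mean CPM, those without overlap between genotypes and the 5 smallest p. From the lists, the most abundant genes were named, and from the histone-related lists those without overlap, with Mki67, Top2a, Slbp, Npat and Junb as references. Other histone genes were named after their values were seen. The genes and lists were chosen with earlier results of these data known. The most abundant conventional CD4 T cell markers are not reported here.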

Additional observations from a re-analysis of the deposited data

How the results depend on the processing

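The count of called genes was 0 under every edgeR and limma-voom setting run and 63 with DESeq2, and the count of called histone genes was 0 under all, DESeq2 included. Leaving out each library moved the median histone log2 difference of -0.175 between -0.442 and 0.135, the number of genes with a higher KO mean between 9 and 42, and the log2 ratio of the summed level, -0.144 with all libraries, between -0.515 and 0.131. The median was 0.248 over the 4 genes with no shared stretch and, in an alternative chosen after seeing the data, 0.026 over the 14 with under 20% shared. The cause was not tested. Of 19 named histone genes 11 kept their direction in all alternatives in which they were tested, among them the 8 H2B genes without overlap. Groups that do not overlap keep their direction when a library is left out. For these 8 genes that outcome was fixed by how they were chosen and is no further support. Hist1h1c turned to 0.089 with limma-voom, 0.076 with the replicate block and 0.14 with the number in the table names as a covariate, and Hist1h4i to -0.036 with that covariate. With a library left out, the ranges were -0.48 to 0.13 for Hist2h2aa1 and Hist2h2aa2, -0.11 to 0.50 for Hist1h4d, -0.30 to 0.53 for Hist1h1c, -0.53 to 0.19 for Hist2h2ac, -0.18 to 0.29 for Hist1h4i, -0.50 to 0.20 for Hist1h2bc and -2.01 to 0.36 for Hist1h2ao. With the replicate number as a block, 0 genes were called and the median was -0.200 (23 higher, 39 lower). Libraries of the same replicate number correlated at -0.09, 0.19 and 0.04 in their deviations from the group means. The 0.19, of WT replicate 2 with KO replicate 2, was the highest between a WT and a KO library. With 3 libraries per genotype these values cannot decide whether the numbers pair libraries. The spread between libraries, with a median SE of 0.58, limits what could be detected.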

Other observations

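The 3 pseudogenes that the rule left out also had reads. Hist1h2al, a processed pseudogene by annotation with 67.6% of its stretches shared, had 3922 counts over all libraries, with 15.7, 14.7 and 24.5 CPM in WT and 23.4, 15.9 and 12.0 CPM in KO. Its highest and lowest libraries were those of the H2A genes, and its level was above that of each Hist1h2a gene on the CPM scale, which is not per length. Hist1h2aj, 93.1% shared, had 3.67, 2.74 and 6.81 CPM in WT and 7.31, 2.63 and 0.57 CPM in KO, with the same libraries high and low. Hist3h2bb-ps had 59 counts over all libraries. Whether these reads came from the pseudogenes or from their copies was not tested.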
